A study of Mus musculus with 4 samples.

Results

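The genes described here are 10 members of glycolysis and of the steps around it, chosen by symbol from a fixed list and found in all 4 libraries as 10 of the 32285 genes counted. They are the glucose transporters *Slc2a1* (GLUT1) and *Slc2a3* (GLUT3), the hexokinases *Hk1* and *Hk2*, the phosphofructokinase subunit *Pfkl*, the phosphoglycerate kinase *Pgk1*, the lactate dehydrogenase subunits *Ldha* and *Ldhb*, the pyruvate dehydrogenase kinase *Pdk1* and the mitochondrial protein *Bnip3*. All 10 passed the filter on low counts in every comparison given below.

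Hearts of mouse embryos at E10.5 (days of embryonic development) were dissociated after dissection of the whole heart-forming region and profiled by droplet single-cell RNA sequencing (10x Genomics), in which each captured transcript carries a unique molecular identifier (UMI) and is counted once. Control embryos were *Tie2* fl/fl and *Tie2-cko* embryos were *Tie2* fl/fl with *Nfatc1Cre*, a Cre knocked into the endocardial gene *Nfatc1*, so that both groups carry the floxed alleles of *Tie2* (*Tek*) and only *Tie2-cko* embryos carry Cre. The study asked how loss of this receptor from the endocardium alters the heart while trabeculae form. There were 2 libraries of each genotype, named here by their replicate numbers (5 and 7 for control, 6 and 8 for *Tie2-cko*), from embryos of 1 litter matched by somites, of both sexes and of mixed 129 and C57/BL6 strain. Each library is labelled as a separate sample. The p-values for genotype within 1 cell type measure the spread between these samples. Those of tests with the library as a block measure how a difference within a library varies from library to library. Unless stated otherwise, 4 values in a row are those of libraries 5, 6, 7 and 8 in that order.

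Glycolysis splits glucose into pyruvate with a small yield of ATP and without oxygen, and lactate dehydrogenase turns pyruvate into lactate so that the pathway can run on. Pyruvate dehydrogenase kinases hold pyruvate back from the mitochondria, and BNIP3 sits in the outer mitochondrial membrane and takes part in the removal of mitochondria. The embryonic heart muscle is known for its reliance on glycolysis before it turns to fatty acids around birth, and most of these genes are known targets of the hypoxia-inducible factors (HIF), which bind DNA at a short core with the letters ACGTG or GCGTG.

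By position on GRCm38 (GENCODE M21, matched by identifier for 10 of 10), *Slc2a1* lies at chr4:119108711-119137983, *Slc2a3* at chr6:122727809-122801640, *Hk1* at chr10:62268855-62379908, *Hk2* at chr6:82725025-82774454 and *Pfkl* at chr10:77986947-78010083. *Pgk1* lies at chrX:106187100-106203699, *Ldha* at chr7:46841475-46855627, *Ldhb* at chr6:142490249-142507957, *Pdk1* at chr2:71873224-71903858 and *Bnip3* at chr7:138890836-138909519. Antisense genes overlap *Slc2a1*, *Hk1*, *Hk2* and *Bnip3*, a pseudogene (*Gm4482*) lies within *Slc2a3*, and annotated copies exist of *Pgk1* (such as *Pgk1-rs7*) and *Ldha* (such as *Ldha-ps*), so that values of these 7 genes could hold reads of a neighbour or copy.

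Promoters were examined because the genes share this HIF core as a known feature, and 9 of the 10 genes were found in the RefSeq promoter table (GRCm38.p6) with 12 windows of 250 bases before a transcription start. ACGTG or GCGTG, on either strand, occurred in 10 of these 12 windows and in all 9 genes. Of all 32851 windows of the table, 38.6% held a match, 16.7% held at least 2, and 6% held the palindrome CACGTG, which contains ACGTG on both strands. The palindrome was present for *Ldha* and *Bnip3* and in no window of the other 7 genes. The windows of 4 genes follow, 5′ to 3′ on the gene's own strand, without bases that lie in an annotated exon and with each complete match in capitals. They show the range from a single printed match (*Slc2a1*, whose other match lies in an exon) through 2 matches (*Pgk1*) to 5 (*Ldha* and *Bnip3*, where a palindrome counts on both strands). A match is a run of letters and no evidence of binding. Most of these genes are known HIF targets, so the counts are descriptions only. The shares over all promoters count windows and not genes, and were not matched for GC content.
Slc2a1, chr4:119108495-119108710, plus strand: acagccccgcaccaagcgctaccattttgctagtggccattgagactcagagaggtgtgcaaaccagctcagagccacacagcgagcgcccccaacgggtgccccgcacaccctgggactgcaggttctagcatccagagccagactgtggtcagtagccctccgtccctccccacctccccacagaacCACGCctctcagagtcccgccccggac
Pgk1, chrX:106186850-106187099, plus strand: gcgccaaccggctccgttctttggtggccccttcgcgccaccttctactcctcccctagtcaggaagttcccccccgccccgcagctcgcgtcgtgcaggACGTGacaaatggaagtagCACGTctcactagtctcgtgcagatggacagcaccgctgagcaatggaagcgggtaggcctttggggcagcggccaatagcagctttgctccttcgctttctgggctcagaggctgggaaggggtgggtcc
Ldha, chr7:46845554-46845803, plus strand: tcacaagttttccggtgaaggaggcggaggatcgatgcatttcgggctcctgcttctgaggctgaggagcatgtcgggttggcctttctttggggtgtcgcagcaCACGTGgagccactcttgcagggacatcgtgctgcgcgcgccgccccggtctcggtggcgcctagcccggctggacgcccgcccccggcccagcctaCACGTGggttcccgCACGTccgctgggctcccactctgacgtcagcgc
Bnip3, chr7:138909520-138909756, minus strand: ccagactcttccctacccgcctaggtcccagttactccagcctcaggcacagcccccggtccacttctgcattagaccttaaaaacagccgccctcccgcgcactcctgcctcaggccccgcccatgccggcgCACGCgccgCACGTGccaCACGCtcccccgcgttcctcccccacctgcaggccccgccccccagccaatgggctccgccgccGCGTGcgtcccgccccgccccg

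The libraries held 169361996 to 259775540 UMIs over 8877 to 18488 barcodes, of which 5684 to 10097 were kept as cells with a median of 14878 to 25875 UMIs. Pairs of libraries shared 12 to 29 cell barcodes. Clusters were named for the cells whose markers they resemble, as cardiomyocytes (CMs, with *Tnnt2*, *Ttn* and *Myh6*), endocardial cells (EdCs, with *Cdh5*, *Npr3* and *Nfatc1*), mesenchymal cells (MCs, with *Twist1* and *Postn*), epicardial cells (with *Upk3b* and *Tcf21*) and others. Each name stands for cells like that type by these markers, and 6 clusters stayed unnamed, of which 3 had few UMIs (1562, 1546 and 798 cells) and 3 did not (1626, 1006 and 114 cells). There were 1424 to 4479 CMs and 263 to 1039 EdCs a library. Libraries 5 and 6 stood apart from libraries 7 and 8 in their cells from outside the heart, with 533 and 563 cells of foregut mesenchyme (*Barx1*, *Foxf1*) against 2 and 3. Each of these pairs holds 1 control and 1 *Tie2-cko* library. *Tek*, the targeted gene, stood at 0.886 and 1.01 UMIs per 10000 in chamber EdCs of the control libraries and at 0.130 and 0.152 in those of the *Tie2-cko* libraries, a log2 fold change of -2.54 ± 0.19 (SE, adjusted p = 0.0121, edgeR quasi-likelihood test), as the labels have it.

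A level below is the mean, over cells of 1 type and library, of a gene's UMIs per 10000 UMIs in the cell. For 9 of the 10 genes a class of CMs had the highest mean level of the 12 cell types, and for *Slc2a3* epithelial cells had. By mean level, epicardial cells lay between CMs and EdCs for all genes but *Hk1*, which was lowest in them. In each of the 4 libraries, all 10 genes were higher in CMs than in EdCs. The ratio of levels ran from 10.45 to 17.1 for *Slc2a1* and from 8.82 to 14.7 for *Bnip3* over the libraries, but only from 2.52 to 2.93 for *Pfkl*.

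**Figure D1:**
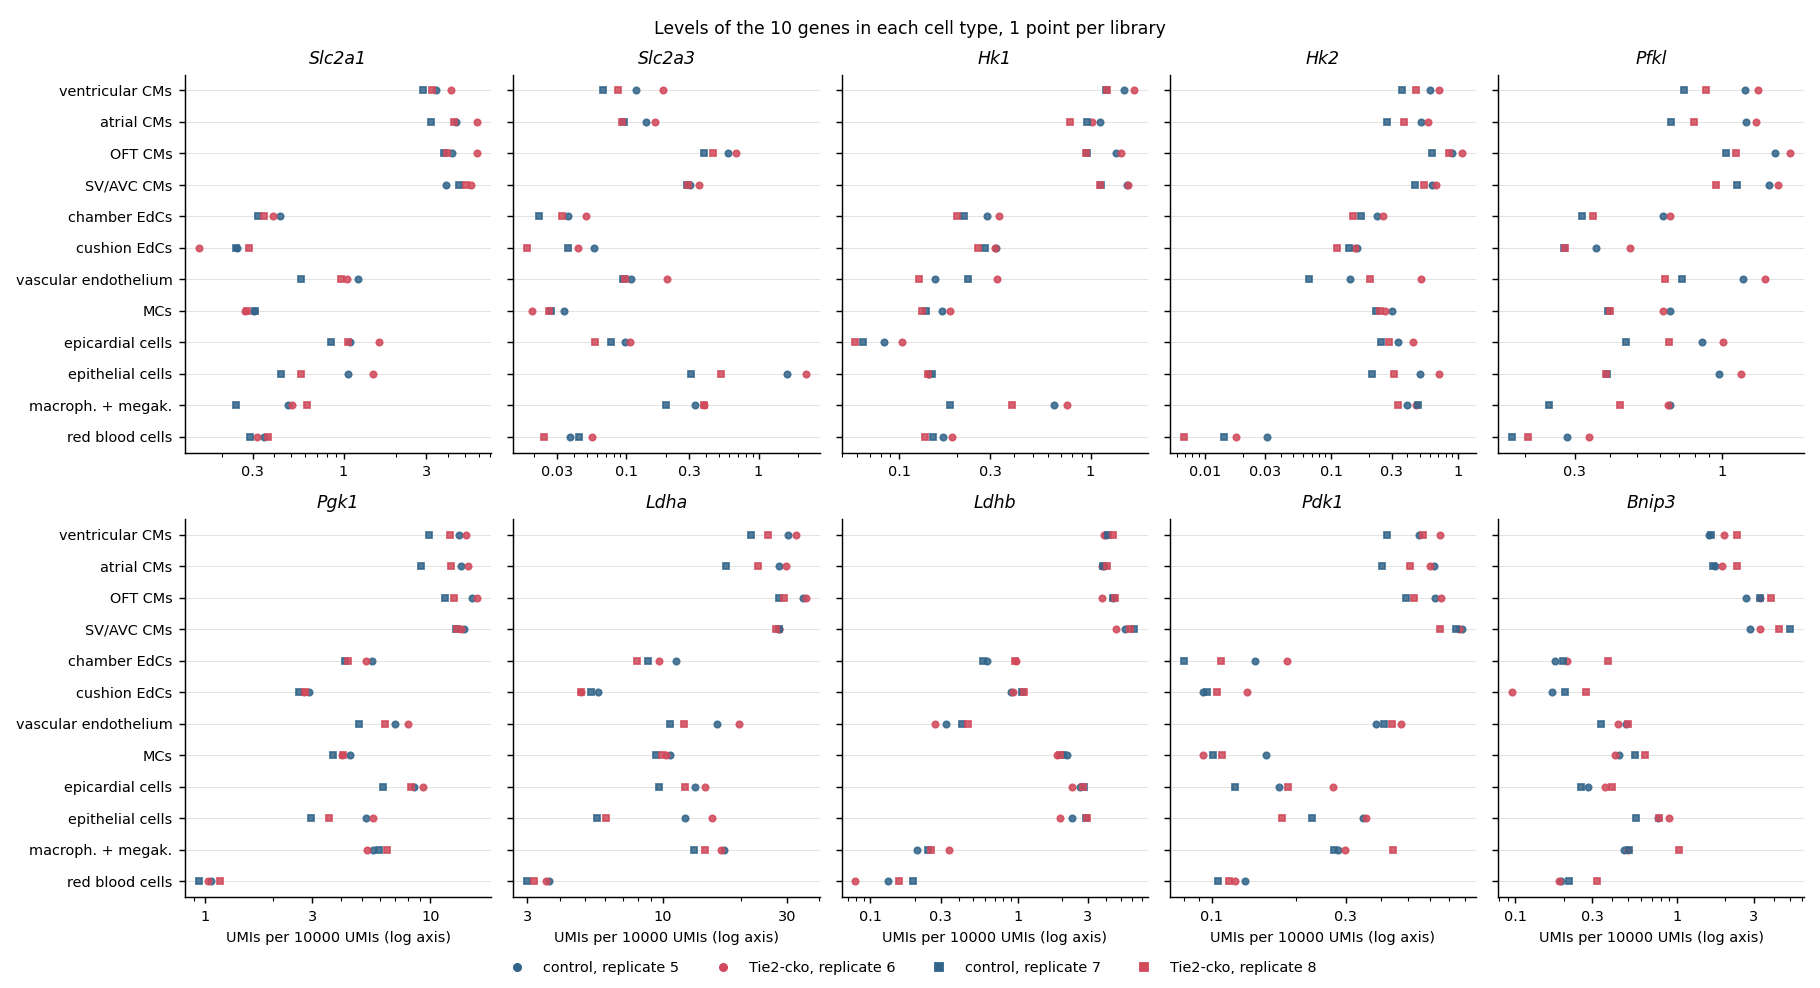
Level of each of the 10 genes (UMIs per 10000 UMIs, log axis) in 12 cell types, with 1 point per library, blue for control and red for *Tie2-cko*, circles for libraries 5 and 6 and squares for libraries 7 and 8. The 4 classes of CMs lie furthest to the right for *Slc2a1* and *Bnip3*, whereas *Slc2a3* is by mean furthest right in epithelial cells, and circles lie right of squares for *Pfkl*.

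*Slc2a1*, the main transporter of basal glucose uptake, stood at 3.73, 4.77, 3.35 and 3.77 in CMs and at 0.357, 0.278, 0.287 and 0.318 in EdCs. Every CM value was thus above every EdC value, and the 4 EdC values spanned a narrow range. Epicardial cells followed the CMs at 0.846 to 1.61, without overlap with the lowest class of CMs, the ventricular CMs at 2.88 to 4.17. Below them, vascular endothelial cells (marked by *Cldn5*) at 0.572 to 1.22 overlapped with epicardial cells, and cushion EdCs were last at 0.147 to 0.284. After each cell was thinned to 5500 UMIs, 74.2% to 82.8% of CMs but 12.9% to 15.1% of EdCs held a *Slc2a1* UMI. MCs, at 14.5% to 15.0%, and red blood cells, at 11.8% to 17.0%, overlapped with EdCs. Globin genes gave 45.3% to 47.4% of the UMIs of red blood cells, and with globin left out their *Slc2a1* level was 0.507 to 0.662, above all 4 EdC values. Without thinning, the shares were 93.7% to 95.5% of CMs, 27.6% to 46.0% of EdCs and 38.0% to 68.0% of red blood cells, at a median of 20918 to 46537, 11414 to 26383 and 22812 to 60281 UMIs a cell. Thinning left out 70 to 150 CMs, 13 to 63 EdCs and 10 to 47 red blood cells a library.

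*Slc2a3*, a transporter of high affinity known from neurons and the placenta, did not follow this order. By mean level it was highest in epithelial cells (*Epcam*), at 1.63 and 2.28 in libraries 5 and 6 and 0.309 and 0.515 in libraries 7 and 8. These cells came from different clusters: nearly all those of libraries 7 and 8 (242 and 316 cells) were in a cluster led by *Pax9*, *Sfn* and *Vgll2*, where *Slc2a3* stood at 1.14 and 2.27 in libraries 5 and 6 (251 and 31 cells) and at 0.313 and 0.521 in libraries 7 and 8. Libraries 5 and 6 also held a cluster led by *Nepn*, *Klf5* and *Onecut1* (176 and 178 cells, at 1.43 and 1.29) and another one. Within the heart muscle, *Slc2a3* was at 0.584, 0.675, 0.386 and 0.449 in outflow tract CMs and at 0.118, 0.190, 0.0659 and 0.0870 in ventricular CMs. In library 7 outflow tract CMs were thus above epithelial cells. The outflow tract lay 3.55 to 5.86 times above the ventricles in the same library, with no overlap between the classes. In sinus venosus and atrioventricular canal CMs it was 1.85 to 4.38 times the ventricular level, also without overlap. In EdCs it was at 0.0443, 0.0461, 0.0280 and 0.0254, from 36 to 58 UMIs a library.

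Of the UMIs of both transporters, *Slc2a3* made up 9.60% to 10.8% in outflow tract CMs and 2.43% to 3.58% in ventricular CMs. Its share was 29.2% to 48.4% in macrophages and megakaryocytes and 47.3% to 73.8% in epithelial cells. Macrophages and megakaryocytes numbered 251, 145, 26 and 35, and the 29.2% of library 7 rests on 24 UMIs of the pair. Epithelial cells were the only one of the 12 types in which *Slc2a3* gave over 50% of the UMIs of the pair in any library.

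*Hk1* and *Hk2* catalyse the same first step, the phosphorylation of glucose, with *Hk1* the more widely used form and *Hk2* the inducible form of muscle and fat. In CMs *Hk1* was at 1.44, 1.56, 1.12 and 1.09, and in EdCs at 0.302, 0.326, 0.245 and 0.229. The CM values were all above the EdC values, by 4.56 to 4.78 times within a library. Epicardial cells were last of the 12 types for *Hk1*, at 0.0838, 0.103, 0.0649 and 0.0591, and did not overlap with the type above them. *Hk2* was at 0.631, 0.739, 0.414 and 0.534 in CMs and at 0.202, 0.207, 0.158 and 0.131 in EdCs. In the order for *Hk2* each type from outflow tract CMs (0.631 to 1.08) down to chamber EdCs (0.149 to 0.256) overlapped in range with the next, and red blood cells were far below the rest at 0.00684 to 0.0314.

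The balance of the hexokinases differed between CMs, EdCs, MCs and epicardial cells, each taken as 1 pool. *Hk1* made up 69.4% to 75.0% of the UMIs of *Hk1* and *Hk2* in CMs and 60.1% to 63.0% in EdCs. In MCs it made up 34.4% to 39.1%, and in epicardial cells 16.4% to 19.9%, so that the 4 pools did not overlap. Classes within the pools did: outflow tract CMs, at 56.8% to 64.4%, overlapped with EdCs, and cushion EdCs, at 66.9% to 70.7%, with CMs, while chamber EdCs were at 53.0% to 58.4%. Red blood cells had the highest *Hk1* share, at 86.1% to 93.8%.

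**Figure D2:**
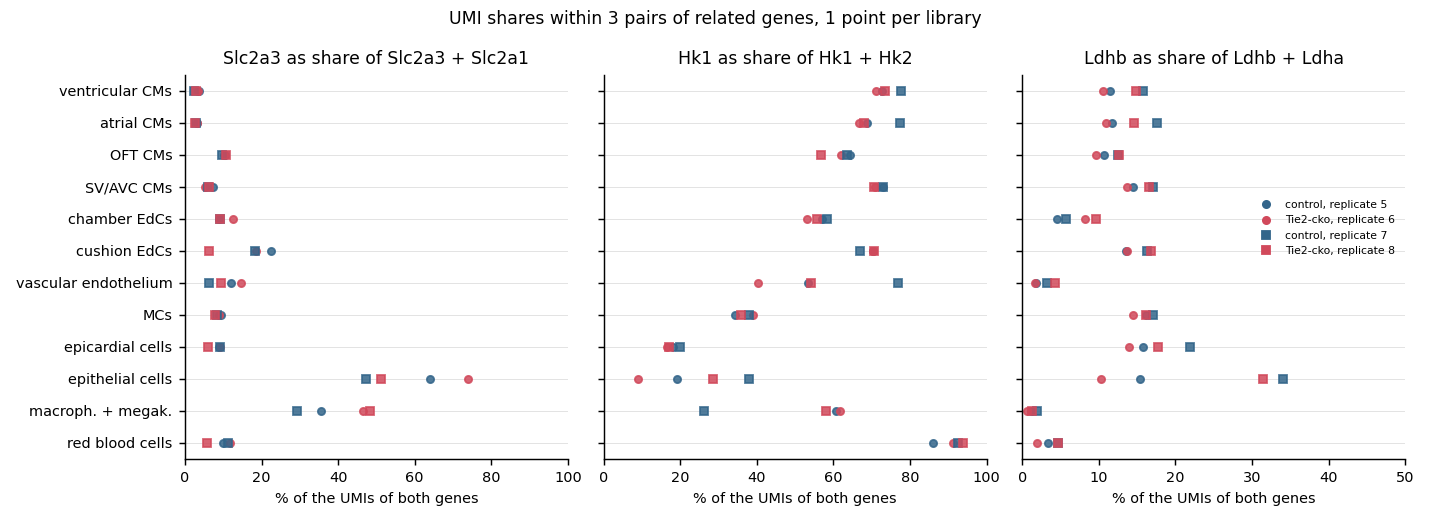
Share in percent of the UMIs of a pair of related genes that came from *Slc2a3* (with *Slc2a1*), *Hk1* (with *Hk2*) and *Ldhb* (with *Ldha*), in 12 cell types, with 1 point per library (OFT, outflow tract; SV/AVC, sinus venosus and atrioventricular canal). *Hk1* gives 71.3% to 77.6% in ventricular CMs and 16.4% to 19.9% in epicardial cells, and for *Ldhb* the chamber EdCs of the *Tie2-cko* libraries (8.20% and 9.58%) lie above those of the control libraries (4.49% and 5.66%).

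*Pfkl* encodes a subunit of the enzyme of the committed step of glycolysis. Its levels were 1.29, 1.43, 0.836 and 0.919 in CMs and 0.513, 0.567, 0.299 and 0.313 in EdCs, which did not overlap. Vascular endothelial cells, at 1.19, 1.43, 0.718 and 0.626, overlapped with all 4 classes of CMs. In each of the 12 types, the level was higher in both libraries 5 and 6 than in both libraries 7 and 8, which also holds in CMs for *Slc2a3*, *Hk1*, *Hk2*, *Pgk1*, *Ldha* and *Pdk1*. Cells of foregut origin and depth differed between the same pairs of libraries, and their part in these levels was not tested.

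*Pgk1*, the enzyme of the first step that yields ATP, was at 13.8, 14.6, 10.6 and 12.5 in CMs and at 4.47, 4.04, 3.52 and 3.57 in EdCs. The groups did not overlap, and epicardial cells, at 6.16 to 9.25, lay between them. Cushion EdCs, at 2.63 to 2.89, were below MCs and above red blood cells without overlap.

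*Ldha* was at 30.2, 32.0, 23.3 and 26.0 in CMs and at 8.97, 7.40, 7.25 and 6.42 in EdCs, again without overlap. Its subunit favours the making of lactate, whereas the subunit of *Ldhb* is known from tissues that burn lactate, such as the adult heart. *Ldhb* was at 4.24, 3.93, 4.46 and 4.60 in CMs and at 0.731, 0.948, 0.788 and 1.03 in EdCs. It differed from *Ldha* in its spread: libraries 5 and 6 were not above libraries 7 and 8. Among CMs, those of the sinus venosus and atrioventricular canal had the most *Ldhb*, 4.68 to 6.17, which was 1.21 to 1.49 times the ventricular level within a library and without overlap.

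Within EdCs the subunits parted. Chamber EdCs had more *Ldha* than cushion EdCs, at 11.2, 9.67, 8.72 and 7.91 against 5.61, 4.85, 5.26 and 4.82. *Ldhb* made up 13.5% to 16.9% of the pair's UMIs in cushion EdCs, close to the 14.5% to 17.1% in MCs. In chamber EdCs it made up 4.49% to 9.58%, and in vascular endothelial cells 1.67% to 4.26%. The 3 endothelial types did not overlap in this share, and macrophages and megakaryocytes had the lowest share of the 12 types in each of the 4 libraries, at 0.665% to 1.87%.

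*Pdk1* was at 0.604, 0.659, 0.480 and 0.562 in CMs and at 0.123, 0.161, 0.0868 and 0.107 in EdCs. The groups did not overlap. Vascular endothelial cells, at 0.385, 0.472, 0.412 and 0.437, overlapped with the lower classes of CMs. There were only 77, 65, 31 and 50 of these cells, and the value of library 7 came from 13 UMIs.

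*Bnip3* was at 1.95, 2.29, 2.46 and 2.88 in CMs and at 0.174, 0.156, 0.1998 and 0.327 in EdCs. Outflow tract CMs held 1.63 to 2.01 times and sinus venosus and atrioventricular canal CMs 1.67 to 3.10 times the ventricular level in the same library. Both classes were above ventricular and atrial CMs without overlap, at 2.67 to 3.82 and 2.83 to 5.06 against 1.59 to 2.35 and 1.68 to 2.35. *Hk1* alone was lower in atrial than in ventricular CMs without overlap, at 0.605 to 0.797 times the ventricular level. At clustering resolution 1.2 the sinus venosus and atrioventricular canal class held 1089 cells instead of 1852. Another cluster of 771 cells, led by *Shox2*, *Vsnl1* and *Calca*, was then named atrial CMs. Contrasts between classes of CMs, also those for *Slc2a3* and *Ldhb*, are given at resolution 0.8 only.

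RNA released from broken cells enters every droplet, and the 8 CM markers gave its scale. In EdCs of the chambers these markers stood at 2.54% to 4.80% of their CM level (median marker, range over libraries), and in cushion EdCs at 1.69% to 5.08%. *Slc2a1* stood at 8.29% to 11.6% and 3.09% to 7.54% of its CM level in these cells, and *Bnip3* at 8.01% to 13.1% and 4.17% to 9.49%. The other 8 genes stood at 13.0% or more in chamber EdCs and at 9.76% or more in cushion EdCs. The highest of the 8 markers stood at 4.37% to 6.46% in chamber EdCs, below both genes in each library, and at 4.21% to 7.64% in cushion EdCs, where the ranges overlapped. In macrophages and megakaryocytes *Ldhb* stood at 4.92% to 8.72% of its CM level and the highest marker at 4.56% to 15.5%, so that these ranges overlapped too. *Hk1* in epicardial cells stood at 5.43% to 6.61% of its CM level, and the highest marker at 4.59% to 6.66%. In red blood cells *Ldhb* stood at 2.01% to 4.35%, *Hk2* at 1.28% to 4.97% and the highest marker at 2.01% to 5.10%. *Slc2a1* overlapped with the highest marker in macrophages and megakaryocytes (7.17% to 16.4%) and in MCs (5.70% to 9.25% against 2.50% to 5.89%). The part of released RNA in these overlapping levels, also those of cushion EdCs, was not tested.

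To compare cell types with a test, UMIs were summed per library and type and fitted by edgeR with the library as a block and TMM normalization. All 10 genes were higher in CMs than in EdCs and none was lower, when 39.7% of the 15760 genes tested were higher and 36% were lower. The median log2 fold change of the 10 genes was 2.61, beside 0.03 for all genes. *Slc2a1* led with 4.03 ± 0.07 (log2, SE, adjusted p = 1.92e-14), followed by *Bnip3* with 3.81 ± 0.08 (adjusted p = 5.08e-14). *Ldhb*, *Hk1*, *Slc2a3* and *Pdk1* followed at 2.72, 2.67, 2.62 and 2.60. *Ldha*, *Hk2* and *Pgk1* were at 2.15, 2.04 and 1.97, and *Pfkl* was last at 1.64 ± 0.06 (adjusted p = 2.31e-11). Scaling by total UMIs moved the median of all genes to -0.30 and turned 6250 higher and 5674 lower genes into 4313 and 8036. Under it the 10 genes remained higher, by 1.30 to 3.70.

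**Figure D3:**
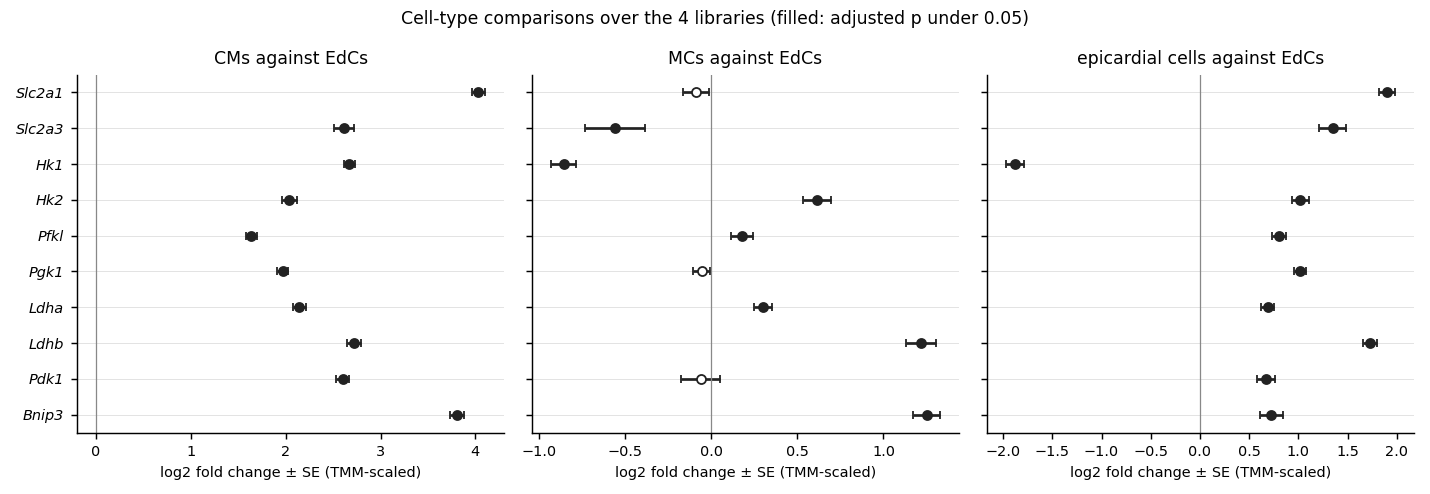
Log2 fold change of each gene in CMs, MCs and epicardial cells against EdCs, with bars of 1 standard error (edgeR, 4 libraries), filled for an adjusted p under 0.05. All 10 genes lie right of 0 in CMs (1.64 to 4.03), and *Hk1* lies left of 0 in MCs (-0.86) and epicardial cells (-1.88).

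The rest of the pathway was read from 3 lists drawn up by gene function. Of 24 genes for glucose uptake and the other steps of glycolysis, 20 were tested, and 16 were higher and 3 lower in CMs than in EdCs, with a median log2 fold change of 2.24. The largest were muscle forms, *Pgam2* (phosphoglycerate mutase, 5.27 ± 0.11) and *Eno3* (enolase, 4.76 ± 0.10), then the insulin-responsive transporter *Slc2a4* (4.06 ± 0.20) and the aldolase *Aldoc* (4.01 ± 0.16). Of 12 genes for handling lactate and pyruvate, 11 were tested and all 11 were higher, among them the monocarboxylate transporters *Slc16a3* (2.91) and *Slc16a1* (2.55), the kinase *Pdk3* (2.34) and the pyruvate dehydrogenase subunit *Pdhb* (1.97). The HIF list was mixed: of 23 genes tested, 12 were higher and 7 lower. *Adm*, which encodes the vasoactive peptide adrenomedullin, was higher by 4.19 ± 0.13, as were the adenylate kinase *Ak4* (1.96) and *Fam162a* (1.61). *Epas1*, the HIF subunit of endothelium, was lower by 3.83 on the log2 scale (-3.83 ± 0.12).

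MCs arise in part from EdCs, and the 10 genes split between these types. Of the 10, 5 were higher in MCs and 2 were lower, when 26.9% of 13217 genes were higher and 27.9% lower. *Bnip3* (1.25 ± 0.08) and *Ldhb* (1.22 ± 0.09) were furthest above EdCs, with levels of 0.442, 0.415, 0.551 and 0.634 and of 2.16, 1.86, 2.04 and 1.93 in MCs. *Hk2* was higher by 0.61 ± 0.08, *Ldha* by 0.30 ± 0.05 and *Pfkl* by 0.18 ± 0.07 (adjusted p = 0.035). *Hk1* was lower (-0.86 ± 0.07), as was *Slc2a3* (-0.56 ± 0.17, adjusted p = 0.0123). The calls of *Pfkl* and *Slc2a3* were lost in 5 and 4 of 12 alternatives, by DESeq2 (adjusted p = 0.105 and 0.144, with 5 of the 10 genes called), when library 5 was left out (0.0985 and 0.0542), that of *Pfkl* also without library 7 or library 8 (0.169 and 0.103) and at clustering resolution 1.2 (0.0648), and that of *Slc2a3* also without library 6 (0.062) and in control libraries alone (0.0561). *Slc2a1*, *Pgk1* and *Pdk1* did not pass the test, at -0.09 ± 0.08, -0.06 ± 0.05 and -0.06 ± 0.11.

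In epicardial cells, the outer layer of the heart, 9 of the 10 genes were higher than in EdCs and *Hk1* was lower, when 33.3% of 13251 genes were higher and 32.2% lower. *Slc2a1* (1.90 ± 0.08) and *Ldhb* (1.73 ± 0.07) were the furthest above EdCs, and *Hk1* was lower by about as much (-1.88 ± 0.09, adjusted p = 2.12e-11). The other 7 genes were higher by 0.67 to 1.35. Of the other steps of glycolysis, 13 of 16 genes tested were higher, among them *Aldoc* (2.44 ± 0.24), *Eno1* (1.61 ± 0.05) and *Tpi1* (1.39 ± 0.05), and 1 was lower. The lactate transporters *Slc16a1* (2.71 ± 0.11) and *Slc16a3* (1.96 ± 0.06) were higher, *Pdk4* was lower (-2.23 ± 0.44), and 5 of 11 genes of that list were higher and 2 lower. Of 21 genes of the HIF list, 11 were higher, *Vegfa* by 1.46 ± 0.13, and 3 lower. In MCs the 3 lists had 9 higher and 2 lower of 16, 5 and 2 of 11, and 4 and 7 of 22, with *Epas1* lowest at -4.37 ± 0.15.

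Ventricular CMs hold an inner trabecular and an outer compact layer, and no cluster matched the markers fixed for compact cells. The cells were therefore ranked in each library by *Nppa*, a natriuretic peptide gene of the trabeculae, and the 293 to 784 cells with the least were compared with as many that had the most. Their mean *Nppa* levels were 1.11, 0.856, 1.93 and 0.959 against 118, 114, 140 and 95.9, and the 294 to 786 cells a library in between were left out. The groups ended at 2.14 to 4.73 and began at 15.7 to 35.1 *Nppa* UMIs per 10000, so that they are ends of 1 range and not separate types. The trabecular markers *Nppb*, *Bmp10*, *Gja5* and *Irx3* were higher in *Nppa*-high cells of each library, and the compact markers *Hey2* and *Mycn* were lower. *Nppa*-high cells also had more UMIs (median 26539 to 55581 against 23026 to 48690) and less of the proliferation gene *Mki67* in each library, and the part of these differences was not tested.

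Of the 10 genes, 4 were higher in *Nppa*-low cells and 2 were lower, when 24.6% of 13282 genes were higher and 25.9% were lower. *Slc2a1* stood at 3.72, 4.58, 3.45 and 3.61 in *Nppa*-low and at 3.02, 3.47, 2.42 and 2.82 in *Nppa*-high cells. It was higher in the *Nppa*-low cells of all 4 libraries, by 0.35 ± 0.03 (log2, SE, adjusted p = 1.88e-09), although values of different libraries overlapped. *Slc2a3* was at 0.123, 0.238, 0.0916 and 0.110 against 0.0946, 0.172, 0.0491 and 0.0652. That is a difference of 0.69 ± 0.09 (adjusted p = 2.24e-07), again in 4 of 4 libraries. *Bnip3* was higher by 0.17 ± 0.04 (adjusted p = 0.000418), and *Hk2* by 0.11 ± 0.04 (adjusted p = 0.0312), a call that was lost in 7 of 11 alternatives (adjusted p up to 0.273), among them DESeq2 (0.159) and the fits without library 7 or library 8 (0.0688 and 0.169).

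*Hk1* and *Ldhb* went the other way. *Hk1* was at 1.22, 1.52, 0.939 and 0.973 in *Nppa*-low and at 1.81, 1.89, 1.44 and 1.50 in *Nppa*-high cells, lower in *Nppa*-low cells by 0.64 on the log2 scale (-0.64 ± 0.04, adjusted p = 1.23e-13). *Ldhb* was at 3.59, 3.41, 3.74 and 4.12 against 4.42, 4.25, 4.66 and 4.73 (-0.37 ± 0.03, adjusted p = 1.1e-09). The members of each pair of isozymes therefore differed in direction or call: *Hk2* was higher where *Hk1* was lower, and *Ldha*, at -0.04 ± 0.03, did not pass the test. *Pfkl*, *Pgk1* and *Pdk1* did not pass either, at -0.05 ± 0.04, 0.03 ± 0.03 and -0.01 ± 0.04.

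**Figure D4:**
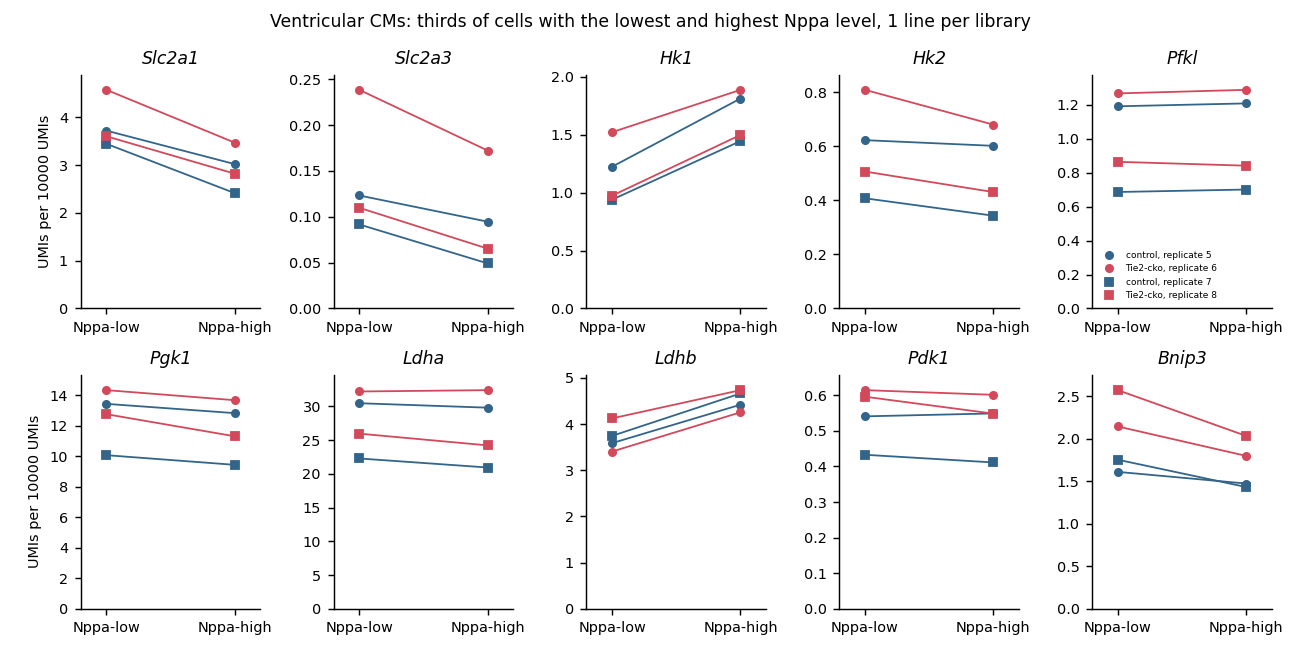
Level of each gene (UMIs per 10000 UMIs, axes from 0) in the ventricular CMs with the lowest and the highest *Nppa* of each library, joined by a line per library. Lines of *Slc2a1* and *Slc2a3* fall from *Nppa*-low to *Nppa*-high cells in 4 of 4 libraries, and lines of *Hk1* and *Ldhb* rise in 4 of 4.

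Around them, the mitochondrial pyruvate carriers *Mpc1* (-0.61 ± 0.04) and *Mpc2* (-0.60 ± 0.03) were lower in *Nppa*-low cells, with 8 lower and 1 higher of 11 genes for lactate and pyruvate. Of 19 other genes of glycolysis tested, 5 were higher and 10 lower, with *Slc2a4* at -0.87 ± 0.11 and *Pfkfb3*, an activator of phosphofructokinase, at 0.75 ± 0.15. The HIF list had 7 higher and 6 lower of 22, with *Epas1* at -1.49 ± 0.20 and *Egln3*, a HIF prolyl hydroxylase, at 0.86 ± 0.17. Scaling by total UMIs turned 3266 higher and 3434 lower genes into 4316 and 2641, and all 6 calls of the 10 genes were kept under it.

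The genotype was compared in 6 cell types, with control and *Tie2-cko* libraries set against each other for each. No gene of the 10 passed the test in any of the 6 types by edgeR, nor by DESeq2, and none of the 3 pathway lists held a gene that passed in edgeR. With a term for libraries 5 and 6 against 7 and 8, which leaves 1 residual degree of freedom, *Ldhb* and *Bnip3* were called in chamber EdCs, where 948 genes were then called in all, and *Slc2a1*, *Pdk1* and *Bnip3* in epicardial cells (63 in all). In chamber EdCs 0.00867% of 11531 genes were called, *Tek* alone. In these cells 812 genes had an unadjusted p under 0.05, among them 1 of the 10 genes (*Ldhb*). DESeq2 called 25 genes there. In cushion EdCs, CMs, MCs and red blood cells 0% of genes were called, with 244, 70, 127 and 45 at an unadjusted p under 0.05 and none of the 10 among them, and DESeq2 called 9, 2, 9 and 0. In epicardial cells 0.0335% were called, with 135 at an unadjusted p under 0.05, of which *Pdk1* and *Bnip3* were 2, and 7 by DESeq2. By edgeR *Tek* was also lower, without a call, in cushion EdCs (-1.99 ± 0.26, adjusted p = 0.0903), MCs (-2.245 ± 0.34) and CMs (-1.485 ± 0.35). It stood at -0.15 ± 0.15 in epicardial cells. *Tek* was far lower in CMs than in EdCs (-6.80 ± 0.13, log2, SE), and the part of released RNA in its CM value was not tested.

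*Ldhb* gave the largest genotype difference of the 10 genes in chamber EdCs. Its level was 0.620 and 0.581 in the control libraries and 0.967 and 0.959 in the *Tie2-cko* libraries. The 2 values of a genotype lay close together and the genotypes did not overlap. The log2 fold change was 0.67 ± 0.13 (SE, adjusted p = 0.277, edgeR). By UMIs summed over chamber EdCs and divided by their total, the libraries of the genotypes did not overlap for 2 of the 10 genes (*Ldhb* and *Bnip3*). This held for 37.9% of all genes tested. *Bnip3* was at 0.176 and 0.197 in the control and 0.211 and 0.377 in the *Tie2-cko* libraries (0.55 ± 0.24, adjusted p = 0.701). With the term for pairs of libraries the adjusted p was 1.84e-09 for *Ldhb* and 0.00215 for *Bnip3*.

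For the other 8 genes in chamber EdCs, log2 fold changes with standard errors were 0.10 ± 0.17 for *Slc2a1*, 0.43 ± 0.34 for *Slc2a3*, -0.20 ± 0.19 for *Hk1* and 0.00 ± 0.23 for *Hk2*. *Pfkl* was at 0.15 ± 0.37, *Pgk1* at -0.06 ± 0.18, *Ldha* at -0.21 ± 0.19 and *Pdk1* at 0.17 ± 0.24. Their adjusted p-values by edgeR were 0.836 to 0.999. The errors of *Pfkl* and *Slc2a3* were the largest, and *Pfkl* was called without library 5 (0.77, adjusted p = 0.0443) and had the other sign without library 6 or library 7 (-0.36 and -0.29).

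In CMs, which an endocardial Cre is not meant to target, the 10 genes were between -0.03 and 0.27 and the adjusted p was 1.0 for each. *Slc2a1* was at 0.19 ± 0.15, *Slc2a3* at 0.18 ± 0.19, *Hk1* at -0.03 ± 0.17, *Hk2* at 0.20 ± 0.23 and *Pfkl* at 0.10 ± 0.30. *Pgk1* was at 0.14 ± 0.18, *Ldha* at 0.09 ± 0.21, *Ldhb* at -0.02 ± 0.11, *Pdk1* at 0.11 ± 0.13 and *Bnip3* at 0.27 ± 0.17. By UMIs summed over CMs and divided by their total, the genotypes did not overlap for 1 of the 10 (*Pdk1*), when this held for 17.3% of all genes. The levels of *Pdk1*, which are means over cells, did overlap, at 0.604 and 0.480 in the control and 0.659 and 0.562 in the *Tie2-cko* libraries. In the other types the fold changes ran from -0.97 to 0.32 in cushion EdCs, from -0.28 to 0.03 in MCs, from -0.10 to 0.50 in epicardial cells and from -0.59 to 0.22 in red blood cells, whose globin genes gave 45.3% to 47.4% of their UMIs. The -0.97 was that of *Slc2a3*, from 11 to 30 UMIs a library.

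The difference of the genotype effect between chamber EdCs and CMs was then tested as a term of 1 model with the library as a block. It was called for 2 of the 10 genes, when 0.812% of 15521 genes were called. *Tek*, the targeted gene, was not called by it (-1.02 ± 0.32, adjusted p = 0.17), and stood at -1.485 ± 0.35 between genotypes in CMs. Its level in CMs was far below that in EdCs, at -6.80 ± 0.13 (log2, SE) in CMs against EdCs. The effect on *Ldhb* was higher in chamber EdCs than in CMs by 0.69 ± 0.11 (log2, SE, adjusted p = 0.00166), and it was called in each of the 12 alternatives run, at 0.57 to 0.82. The levels of *Ldhb* in CMs, 4.24 and 4.46 in the control and 3.93 and 4.60 in the *Tie2-cko* libraries, overlapped between the genotypes. The effect on *Ldha* was lower in chamber EdCs by 0.31 (-0.31 ± 0.07, adjusted p = 0.0487), a call that was lost in 10 of 12 alternatives, among them each of the 4 that left out a library (adjusted p = 0.159 to 0.636). The share of *Ldhb* in the UMIs of both subunits was 4.49% and 5.66% in control and 8.20% and 9.58% in *Tie2-cko* chamber EdCs, without overlap and without a test of its own. Of the HIF list, the effects on *Ddit4* (-0.96 ± 0.22, adjusted p = 0.0326) and *Higd1a* (-0.40 ± 0.09, adjusted p = 0.0427) were also lower in chamber EdCs.

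**Figure D5:**
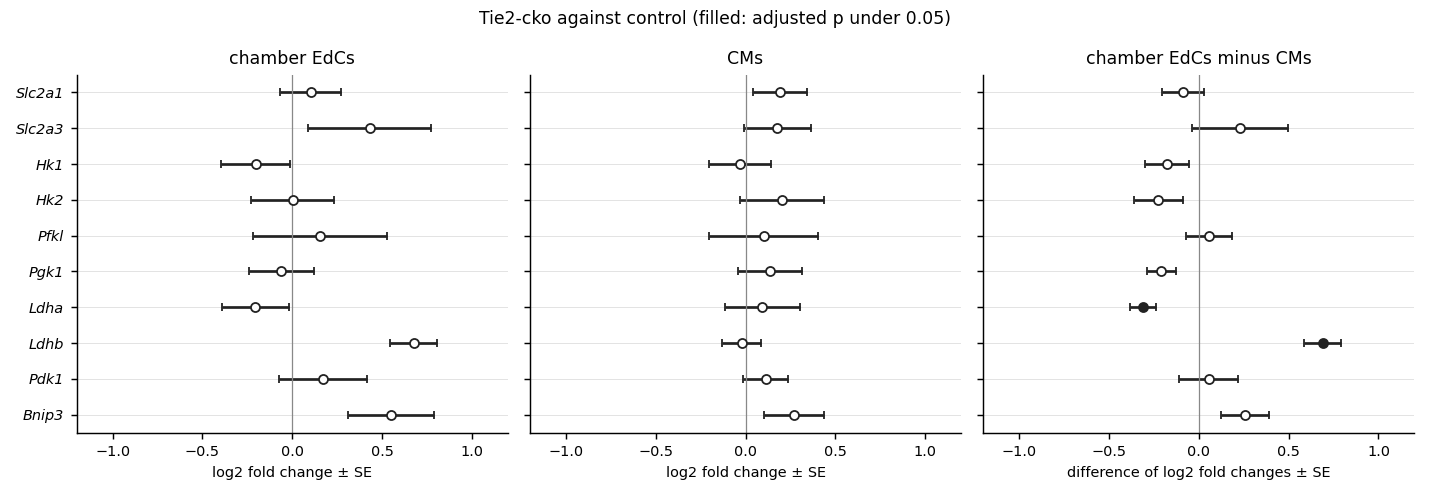
Log2 fold change between *Tie2-cko* and control of each gene in chamber EdCs and in CMs, and the difference of these effects, with bars of 1 standard error (edgeR, 2 libraries a genotype) and filled points for an adjusted p under 0.05. All points are open in chamber EdCs and CMs, and *Ldhb* (0.69) and *Ldha* (-0.31) are filled in the difference.

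Released CM RNA was measured in the same cells. The 8 CM markers stood at a median of 3.45% and 3.93% of their CM level in chamber EdCs of the control libraries and at 2.54% and 4.80% in those of the *Tie2-cko* libraries, so that the genotypes overlapped. *Ldhb* stood at 14.6% and 13.0% against 24.6% and 20.9% of its CM level. It was above the highest of the 8 markers (4.37% to 6.46%) in each library. These markers scale RNA released from CMs only, and *Ldhb* was also at 1.86 to 2.16 in MCs and 2.33 to 2.82 in epicardial cells. The part of released RNA in the *Ldhb* difference was not tested.

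Across cell types and libraries, the genes whose level varied most like each other were *Pgk1* and *Ldha* (Pearson r = 0.966 over 45 profiles of 12 cell types with at least 50 cells, on a log scale). *Slc2a3* and *Hk1* were the least alike at 0.305. Profiles of 1 library share its depth, and those of the CM classes share much of their expression, so these are descriptions only. Outside the lists, the genes most like *Slc2a1* were *Gpx3* (0.942) and *Unc45b* (0.937), most like *Bnip3* *Atp1b1* (0.953) and *Fahd1* (0.951), and most like *Ldhb* *Dsp* (0.958) and *Ift43* (0.952). *Pgk1* was most like *Prelid2* (0.957) and *Gpx4* (0.944), and *Ldha* most like *Atp5a1* (0.940) and *Got2* (0.927). *Hk1* was most like *Ehbp1l1* (0.942) and *Ndufs1* (0.936), *Hk2* most like *Pdxp* (0.927) and *Rnf6* (0.901), and *Pfkl* most like *Got2* (0.895) and *Lonp1* (0.872). *Pdk1* was most like *Atp5a1* (0.885) and *Grhpr* (0.884). No gene came as close to *Slc2a3*, for which *Tpd52* (0.731) and *Otud4* (0.728) led.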

How the data were processed

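Droplet single-cell RNA libraries from 2 control and 2 *Tie2-cko* hearts were measured. The authors deposited UMI counts per gene and barcode, made with Cell Ranger 6.1.2 per the file headers and the mm10 genome per the labels. Whether counting used the strand is not given in the sources used here.

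A barcode was kept as a cell from 500 genes and 1000 UMIs upward if no more than 10% of its UMIs were mitochondrial. Scrublet (scanpy 1.11.5) then ranked doublets, of which 0.8% per 1000 barcodes were removed. Cells were clustered with Seurat 5.3.0 (2000 variable genes without the listed genes, 30 components, 20 neighbours, resolution 0.8). A cluster was named where over 0.5 of a marker list, and at least 3 markers, stood at 0.25 or more of their highest level.

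Sums of UMI counts over the cells of each type in a library were tested by edgeR 4.0.16 (quasi-likelihood, TMM, filterByExpr, Benjamini-Hochberg over all genes tested, threshold 0.05) in R 4.3.3. The library was a block between cell types, and DESeq2 1.42.0 was an alternative. The scripts were tested on simulated data. Standard errors come from the fold change and its F statistic.

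The text names the 10 genes, up to 4 called genes per pathway list and comparison with the largest fold changes, *Tek*, and the 2 genes most like each of the 10, by the correlation of log2(level + 0.1) among genes with a mean level of at least 0.2. The members and lists were chosen with earlier results of these data known. Shares of cells cover counting error only. Results that rest on items withheld from the text are not reported here.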

Additional observations from a re-analysis of the deposited data

Results flagged for a closer look

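The genotype effect differed between chamber EdCs and CMs for 2 of the 10 genes, by the test of the difference itself. That edgeR test did not call the targeted gene *Tek* (-1.02 ± 0.32, adjusted p = 0.17), which was at -6.80 ± 0.13 in CMs against EdCs. For *Ldhb*, the log2 fold change between *Tie2-cko* and control in chamber EdCs minus that in CMs was 0.69 ± 0.11 (SE, adjusted p = 0.00166, edgeR), from 0.67 in chamber EdCs and -0.02 in CMs. For *Ldha* it was -0.31 ± 0.07 (adjusted p = 0.0487), from -0.21 and 0.09, and this call was kept in 2 of 12 alternatives. In cushion EdCs *Ldhb* was at -0.07 ± 0.16 between the genotypes.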

How the results depend on the processing

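Of the 35 called fold changes, 31 stayed past the threshold in every alternative run; over all 414 alternative values, 388 stayed past it, 26 did not and 0 reversed. The exceptions were *Ldha* in the difference between cell types, *Pfkl* and *Slc2a3* in MCs, and *Hk2* by *Nppa*. In chamber EdCs the count of the 10 genes called went from 0 to 1 with no filter on low counts (*Ldhb*, adjusted p = 0.00698), to 2 with a term for libraries 5 and 6 against 7 and 8 (*Ldhb* and *Bnip3*, adjusted p = 1.84e-09 and 0.00215, with 1 residual degree of freedom), and was 0 to 1 over leave-one-out fits. In epicardial cells that term gave 3 (*Slc2a1*, *Pdk1* and *Bnip3*). The count for the difference between cell types fell from 2 to 1 under DESeq2, RLE size factors, total UMIs, stricter cells, more doublets removed and globin genes left out, and was 1 to 1 over leave-one-out fits. MC calls ranged from 5 to 7 and *Nppa* calls from 5 to 6 over leave-one-out fits. Contrasts of levels between the classes of CMs are given at clustering resolution 0.8 only.

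The sign of *Hk2* in chamber EdCs turned to -0.0076 under DESeq2, -0.0065 under RLE, -0.0057 with no filter, -0.00995 at resolution 1.2, -0.0041 with more doublets removed and -0.00082 with the term for pairs of libraries. *Ldhb* in CMs turned to 0.0097 with stricter cells. The cause was not tested. Over leave-one-out fits in chamber EdCs, *Slc2a1* ranged from -0.092 to 0.31, *Hk2* from -0.23 to 0.24, *Pfkl* from -0.36 to 0.77, *Pgk1* from -0.28 to 0.19, *Ldha* from -0.42 to 0.035 and *Pdk1* from -0.13 to 0.51. In CMs, *Slc2a3* ranged from -0.0155 to 0.41, *Hk1* from -0.21 to 0.14, *Hk2* from -0.059 to 0.53, *Pfkl* from -0.26 to 0.48, *Pgk1* from -0.065 to 0.38, *Ldha* from -0.13 to 0.36, *Ldhb* from -0.095 to 0.049 and *Pdk1* from -0.0098 to 0.25.

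Counts over all genes in the genotype tests varied between alternatives, from 1 to 948 in chamber EdCs, 0 to 107 in cushion EdCs, 0 to 97 in CMs, 0 to 99 in MCs, 0 to 65 in epicardial cells and 0 to 4 in red blood cells, from 27 to 452 for the difference between cell types, and from 4448 to 6957 by *Nppa*. With 2 libraries a genotype, fits without 1 library assume that the lone sample varies like the others. The replicate numbers name no pairs, since the genotypes share none, and the labels do not say whether libraries were made in pairs. The main genotype test holds no term for pairs, so its p-values include any difference between them. The term for libraries 5 and 6 against 7 and 8 groups them by their cells from outside the heart, and it gave the 948 calls in chamber EdCs, against 1 without it.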

Other observations

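Hepatic endoderm-like cells, marked by *Afp*, *Apoa2* and *Ttr*, were present as 246, 318 and 53 cells in libraries 5, 6 and 8 and absent from library 7, and took part in no comparison. Their *Ldhb* level was 6.47, 6.56 and 5.16 UMIs per 10000, above the 3.93 to 4.60 of CMs in each of these libraries. Sinus venosus and atrioventricular canal CMs stood below it in libraries 5 and 6 (5.36 and 4.68) and above it in library 8 (5.81). *Pgk1* stood at 12.9, 15.3 and 15.1 and *Ldha* at 21.3, 22.5 and 22.3. *Hk2* (0.666, 0.742 and 0.521) was above *Hk1* (0.140, 0.125 and 0.114). *Bnip3* stood at 1.10, 1.26 and 1.89. Foregut mesenchyme, with 533 and 563 cells in libraries 5 and 6, held *Hk2* at 0.563 and 0.645.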
